A study of Mus musculus with 12 samples.

Results

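The cyclin-dependent kinase inhibitor genes of the mouse were examined in a list of sites that carry H3K27me3, the repressive Polycomb mark on lysine 27 of histone H3. All 7 genes of the group were taken, of 21755 protein-coding genes on chromosomes 1 to 19 and X: Cdkn1a, Cdkn1b and Cdkn1c of the CIP/KIP family, and Cdkn2a, Cdkn2b, Cdkn2c and Cdkn2d of the INK4 family. The genes were chosen by name, and the sites assigned to a gene were those overlapping its gene body extended by 20 kb on both sides, which is called its window below. The cells were immortalized mouse embryo fibroblasts (iMEF cells) in which exon 4 of the endogenous Ash2l alleles had been deleted by a tamoxifen-activated Cre recombinase, and which lived on a lentivirally expressed fusion of FKBP12F36V, HA tags (HA2) and human ASH2L, in 1 clone named NG3. ASH2L is a core subunit of the KMT2 complexes, the writers of methylation on H3 lysine 4, and dTAG-13 is a small molecule that directs the fusion protein to degradation. H3K27me3 was measured by chromatin immunoprecipitation and sequencing (ChIP-seq) in 8 libraries, 2 each of untreated cells and of cells treated with dTAG-13 for 16 h, 24 h and 48 h, with 4 input libraries, 2 of untreated cells and 2 of cells treated for 48 h. All groups shared the Ash2l deletion and the fusion construct, and how the cells had been immortalized is not given in the sources used here.

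By their titles, the libraries are those of the second H3K27me3 experiment of the study, and the first was not used here. The deposited list holds 101389 sites found over all samples of this second experiment, each with a chromosome, a start and an end. It holds no value of a single library. Whether H3K27me3 at the inhibitor genes differed between untreated cells and any time of dTAG-13 could therefore not be tested from it, and no replicate error can be given. The study planned a minimum of raw reads for each ChIP sample, but the depth reached is unknown here. Calls of changed sites per time point, which the authors made themselves, are listed apart and were not used here. The values below describe where sites lie relative to the 7 genes, and the same values over all protein-coding genes are given as the background. Positions are on mm10 (GRCm38), counted from 1, and genes and transcription start sites (TSSs) are those of GENCODE release M21.

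Cyclin-dependent kinase inhibitors hold back the cell cycle by binding the kinases that drive it. INK4 proteins bind CDK4 and CDK6 and block their pairing with D-type cyclins, whereas CIP/KIP proteins bind a wider set of cyclin and kinase complexes. H3K27me3 is written by Polycomb repressive complex 2, which holds the methyltransferase EZH2 or EZH1 with EED and SUZ12, and is bound by CBX proteins of Polycomb repressive complex 1. In fibroblasts the Cdkn2a and Cdkn2b locus is a textbook Polycomb target: Bmi1, Ezh2 and Cbx7 keep it silent in young cells, and it is induced when cells become senescent. In immortalized rodent fibroblasts this locus is often lost, or the p53 pathway is inactivated instead. CpG-rich promoters without transcription are the usual places where Polycomb complexes gather.

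The results turn on promoters that have no listed site and on the sites nearest to the other genes, so their sequences come first, with each CG dinucleotide in capitals. Cdkn2a has 2 promoters. The upstream one gives the transcript of p19Arf and the downstream one that of p16Ink4a, proteins read in different frames from shared exons. Shown 5′ to 3′ on the minus strand, as RefSeq gives them for GRCm38.p6, are the bases before each start that lie in no annotated exon: chr4:89294654-89294869 for p19Arf, chr4:89282193-89282442 for p16Ink4a and chr4:89311040-89311282 for Cdkn2b.
Cdkn2a, p19Arf promoter: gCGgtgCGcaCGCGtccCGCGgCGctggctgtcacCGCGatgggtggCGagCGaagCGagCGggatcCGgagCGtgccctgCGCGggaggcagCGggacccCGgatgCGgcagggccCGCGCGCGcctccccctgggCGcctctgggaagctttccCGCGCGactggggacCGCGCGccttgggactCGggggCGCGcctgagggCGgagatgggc
Cdkn2a, p16Ink4a promoter: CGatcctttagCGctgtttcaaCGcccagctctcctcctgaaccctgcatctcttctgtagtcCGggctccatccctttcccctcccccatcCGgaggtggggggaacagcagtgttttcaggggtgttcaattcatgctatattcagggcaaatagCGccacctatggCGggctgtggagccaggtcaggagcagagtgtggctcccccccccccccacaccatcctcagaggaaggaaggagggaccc
Cdkn2b promoter: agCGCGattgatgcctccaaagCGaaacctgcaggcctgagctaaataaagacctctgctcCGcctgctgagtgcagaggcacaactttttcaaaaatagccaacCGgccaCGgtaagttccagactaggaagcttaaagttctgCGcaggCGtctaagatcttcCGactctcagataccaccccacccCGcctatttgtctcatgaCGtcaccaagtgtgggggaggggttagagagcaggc

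These 3 promoters differ in CpG content. The p19Arf promoter holds 35 CG in the 216 bases shown and 40 in the whole 250 bases before the RefSeq start, a number that 1.31% of the 32851 promoters in the RefSeq table reach. The p16Ink4a promoter holds 7 CG in 250 bases, which 46.3% of promoters reach. The Cdkn2b promoter holds 11 CG in the 243 bases shown and 12 in the whole 250 bases, which 33.5% reach. The median over all promoters was 6. The GC box, searched as GGGCGG on both strands, occurred 2 times before p19Arf and not before p16Ink4a or Cdkn2b, and 32.7% of all promoters of this length held at least 1. The RefSeq table held promoters of 6 of the 7 genes.

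The sites that did lie near an inhibitor gene are represented by 4 stretches on the plus strand of GRCm38.p6. The first is the complete 258 bp site at chr9:21296894-21297151 upstream of Cdkn2d. The second is the central 300 bases, chr17:29104144-29104443, of the 784 bp site downstream of Cdkn1a. The third, chr7:143460101-143460400, lies in the main coding exon of Cdkn1c under the 3849 bp site on that gene, and the fourth, chr7:143468434-143468733, is the centre of the 2976 bp site nearest upstream of Cdkn1c.
Site upstream of Cdkn2d: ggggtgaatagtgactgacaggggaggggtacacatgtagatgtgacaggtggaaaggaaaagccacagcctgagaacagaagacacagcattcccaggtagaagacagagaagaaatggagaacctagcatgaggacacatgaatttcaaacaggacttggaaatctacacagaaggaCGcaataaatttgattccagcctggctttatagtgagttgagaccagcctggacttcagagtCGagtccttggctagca
Site downstream of Cdkn1a: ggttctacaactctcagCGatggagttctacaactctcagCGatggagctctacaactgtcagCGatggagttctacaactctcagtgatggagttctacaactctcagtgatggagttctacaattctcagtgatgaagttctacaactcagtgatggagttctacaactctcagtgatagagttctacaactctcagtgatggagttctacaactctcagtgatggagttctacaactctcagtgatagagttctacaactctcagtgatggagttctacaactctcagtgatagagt
Site on the Cdkn1c coding exon: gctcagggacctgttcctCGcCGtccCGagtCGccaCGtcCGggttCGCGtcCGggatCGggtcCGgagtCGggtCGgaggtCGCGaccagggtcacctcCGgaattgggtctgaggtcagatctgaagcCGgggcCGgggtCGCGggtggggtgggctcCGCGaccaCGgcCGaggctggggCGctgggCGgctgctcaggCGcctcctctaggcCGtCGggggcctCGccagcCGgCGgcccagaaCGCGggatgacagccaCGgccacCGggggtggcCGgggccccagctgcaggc
Site upstream of Cdkn1c: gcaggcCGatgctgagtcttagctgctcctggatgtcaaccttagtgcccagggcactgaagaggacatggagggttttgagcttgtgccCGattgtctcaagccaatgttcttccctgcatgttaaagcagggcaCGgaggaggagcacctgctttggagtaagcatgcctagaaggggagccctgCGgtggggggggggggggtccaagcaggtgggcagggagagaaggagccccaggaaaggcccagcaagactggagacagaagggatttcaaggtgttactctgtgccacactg

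The stretch on the Cdkn1c coding exon holds 37 CG in 300 bases and a GC content of 75.3%. The other stretches hold 2 CG in 258 bases at Cdkn2d, 3 CG in 300 bases at Cdkn1a and 4 CG in 300 bases upstream of Cdkn1c. The stretch near Cdkn1a is a tandem repeat. Across its 784 bp site, 76.2% of bases equalled the base 23 bp further on, against a median of 21.4% over shifts of 5 to 60 bp, and 88.4% of the site is masked as repeat in the reference.

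Of the 7 inhibitor genes, 3 had at least 1 listed site in their window and 4 had none. The 3 were Cdkn1c with 8 sites, Cdkn1a with 6 sites and Cdkn2d with 2 sites. Cdkn1b, Cdkn2a, Cdkn2b and Cdkn2c had 0. Over all protein-coding genes, 61.5% had a site in the same kind of window. The count by family was 2 of the 3 CIP/KIP genes and 1 of the 4 INK4 genes. With 7 genes these counts are a description, and no difference from the background is drawn from them.

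A site within 1 kb of a TSS was listed for 1 of the 7 genes, Cdkn1c, against 26.9% of all protein-coding genes. No site covered the outermost 5′ end of any of the 7, whereas 18.1% of protein-coding genes had their 5′ end in a site. A CpG-rich stretch, here 500 bp in which GC made up 55% or more of the bases and the observed over expected CpG number was 0.65 or more, lay within 1 kb of a TSS of all 7 genes, beside 59.99% of all protein-coding genes. Among the 13050 protein-coding genes with such a stretch, a site came within 1 kb of a TSS in 26.3%, so the CpG-rich genes as a class had about the same share as all genes.

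**Figure D1:**
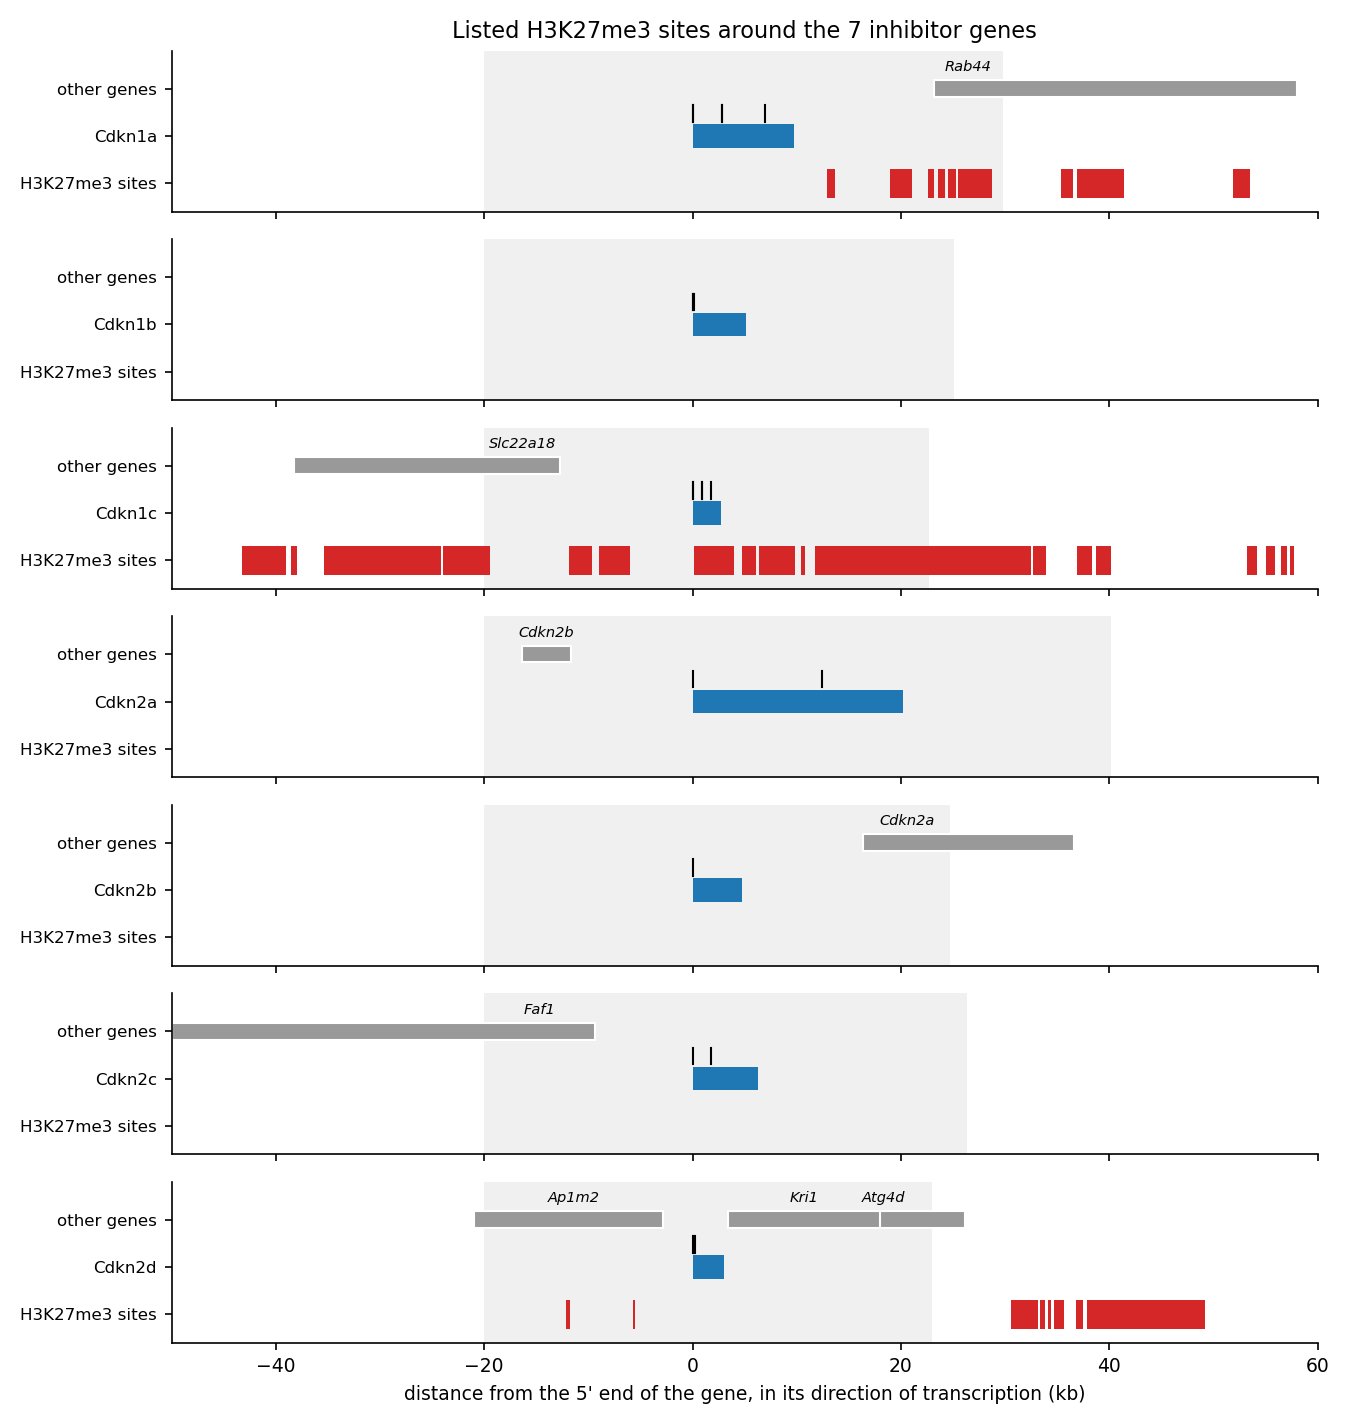
Each panel shows 1 inhibitor gene from 50 kb upstream to 60 kb downstream of its 5′ end on the x axis (kb, in the direction of transcription), with listed H3K27me3 sites in red, the gene in blue, its TSSs as black ticks, other protein-coding genes that overlap the window in grey and the 20 kb window shaded. Within the shaded windows, sites lie on Cdkn1c and on both of its sides, downstream of Cdkn1a and upstream of Cdkn2d, and further sites lie beyond these 3 windows. The panels of Cdkn1b, Cdkn2a, Cdkn2b and Cdkn2c hold no site over the whole range drawn.

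The share of the window under sites was 59.9% for Cdkn1c, 16.4% for Cdkn1a, 1.60% for Cdkn2d and 0 for the other 4. The median over all protein-coding genes was 1.88% and the third quartile was 14.0%. A share at least as high as that of Cdkn1c was found for 4.39% of genes, as high as that of Cdkn1a for 22.4%, and as high as that of Cdkn2d for 51.4%. The shares of Cdkn1a and Cdkn2d depended on the extension and on narrow sites. That of Cdkn1a was 3.97% with 5 kb, 5.46% with 10 kb and 10.8% with sites of at least 1000 bp, and that of Cdkn2d was 16.6% with 50 kb and 0 with sites of at least 500 bp. Joined into 6 windows, because those of Cdkn2a and Cdkn2b overlap, the 7 windows span 303458 bp, of which 11.3% lay under sites. The mean of the single-gene shares over all protein-coding genes was 11.3%, a different measure in which each gene counts equally. The median over the 7 genes was 0, and most of the cover came from 1 gene: 25601 of the 34427 covered bases were in the Cdkn1c window.

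**Figure D2:**
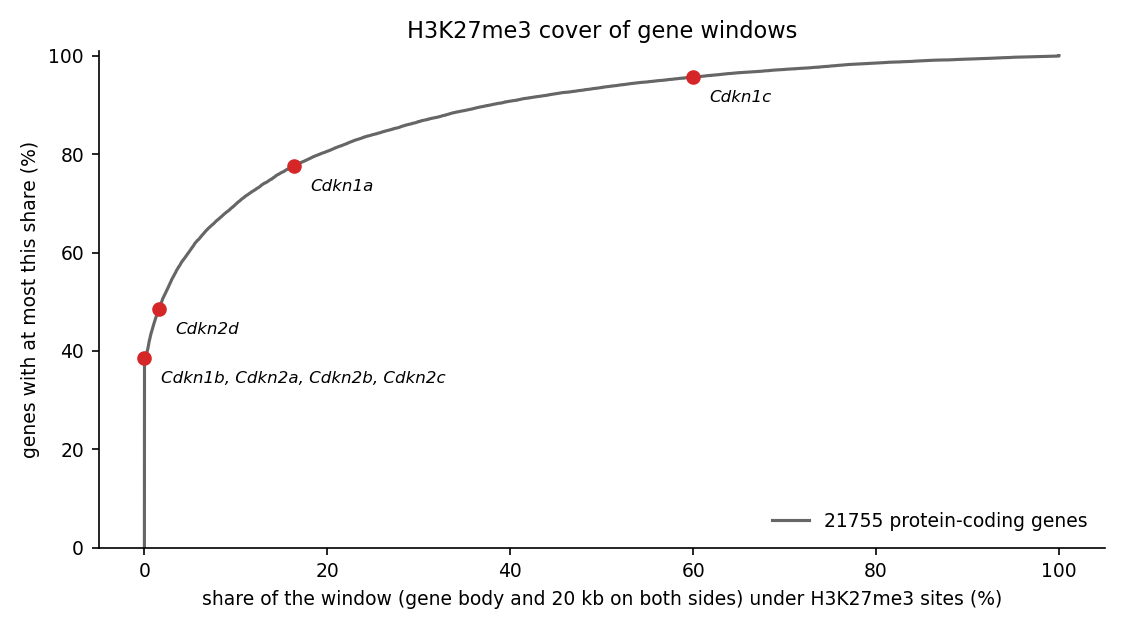
Cumulative distribution over 21755 protein-coding genes (grey line) of the share of the gene window under H3K27me3 sites (x axis, %), with the percent of genes at or below each share on the y axis and the inhibitor genes as red points. Cdkn1c lies at 59.9%, Cdkn1a at 16.4%, Cdkn2d at 1.60%, and the remaining 4 genes at 0 together with 38.5% of all genes.

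Cdkn2a encodes p16Ink4a, an inhibitor of CDK4 and CDK6, and p19Arf, which stabilizes p53 by binding MDM2. The gene spans chr4:89274471-89294653 on the minus strand. No site touched it, either of its TSSs or its window. The nearest site was 281843 bp from the p19Arf TSS and 294304 bp from the p16Ink4a TSS. Cdkn2b, at chr4:89306299-89311039 on the same strand, encodes p15Ink4b, a further inhibitor of CDK4 and CDK6. It also had no site, and the nearest one was 265457 bp from its TSS. Over all protein-coding genes the median distance from the nearest TSS to the nearest site was 13192 bp, and 6.996% of genes were at least as far from a site as Cdkn2a and 7.44% as far as Cdkn2b. Both genes therefore lay among the genes farthest from any listed H3K27me3 site.

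Both genes lay in a single stretch of 711141 bp without a site, chr4:88865355-89576495. Of the 101285 stretches between neighbouring sites in the genome 584 were at least as long, which is 0.577%, and this one ranked 39 among 4952 on chromosome 4. The median stretch was 1069 bp, since sites cluster. Among the 17752 protein-coding genes whose 5′ end lay outside sites and between 2 sites of its chromosome, the median stretch around the 5′ end was 168739 bp, and 16.4% of genes lay in a stretch of 711141 bp or more. Of the 2907 genes in such long stretches, 27.8% had a CpG-rich TSS, as Cdkn2a and Cdkn2b do, against 59.99% of all protein-coding genes. The stretch holds the 5′ ends of 4 protein-coding genes: Ifne, an interferon gene, Mtap, which encodes the methionine salvage enzyme methylthioadenosine phosphorylase, Cdkn2a and Cdkn2b. It ends in a site of 1327 bp on the side of Ifne and in a site of 201 bp on the side of Cdkn2b.

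Sites were unevenly spread around the stretch. In the 1 Mb beyond its lower end, toward the interferon genes, 61 sites covered 5.93% of the sequence, and 12 protein-coding genes there had one near a TSS (within 1 kb), Mllt3 and 11 genes of the interferon alpha group. In the 1 Mb beyond the upper end 6 sites covered 0.487%, and the gene with a site at its TSS was Dmrta1. Within 1 Mb of the 5′ end of Cdkn2a 3.20% of the sequence lay under 66 sites, and 74.4% of protein-coding genes had at least that cover around them. The median over genes was 9.32% and 102 sites.

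**Figure D3:**
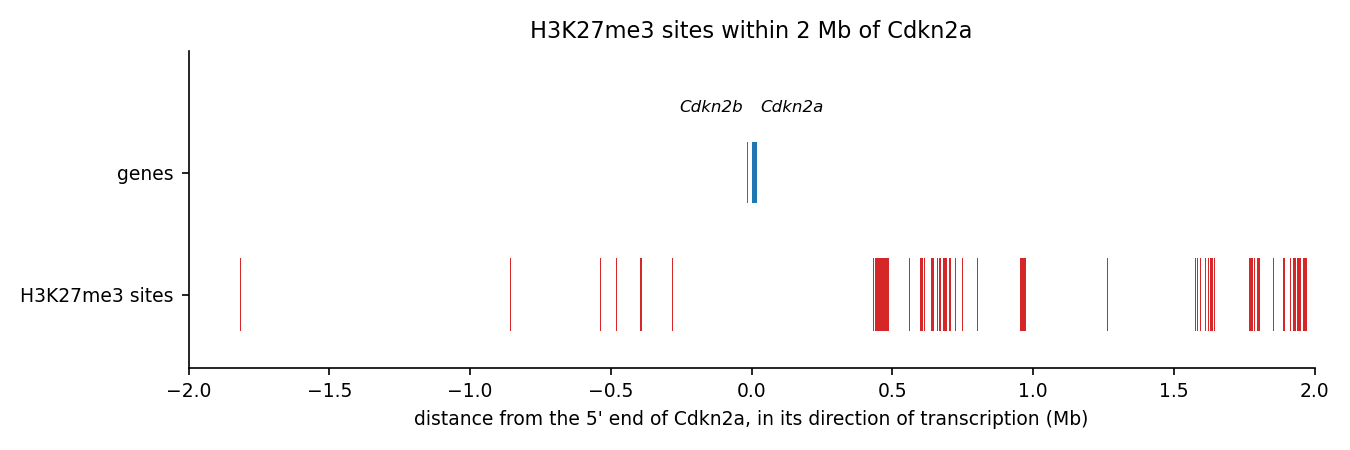
Listed H3K27me3 sites (red) within 2 Mb of the 5′ end of Cdkn2a, by distance along the direction of transcription (x axis, Mb), with Cdkn2a and Cdkn2b in blue, and sites narrower than 4 kb drawn 4 kb wide. No site lies near either gene, the nearest being 281843 bp upstream of Cdkn2a, and sites are denser downstream, on the side of the interferon genes.

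The reference has unsequenced bases in this region. The stretch holds 30400 such bases, the Cdkn2a window 100 and the Cdkn2b window 14340 of its 44741, all of the latter outside the gene. No piece of the Cdkn2a window, the Cdkn2b window or the stretch, taken as 1 unmasked 50 bp piece per kb, occurred in a genome patch of GRCm38.p6 (0 of 60, 31 and 628 pieces). The list holds no coverage of the input libraries, so a locus without the mark and a locus without reads cannot be told apart from it. The copy number of the Cdkn2a and Cdkn2b locus was not analysed here.

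Cdkn1c encodes p57Kip2, a CIP/KIP inhibitor expressed from the maternal allele and imprinted within the Kcnq1 cluster. It spans chr7:143458339-143461050 on the minus strand. Sites covered 94.6% of its gene body, 92.8% of its exon bases and all 1080 bases of its coding sequence. The site on the gene, chr7:143457055-143460903, is 3849 bp wide, and 10.1% of all listed sites are at least that wide. Its upstream edge lay 147 bp downstream of the outermost TSS and 93 bp downstream of the next, so that both of these starts lay outside it. The TSSs of 3 further annotated transcripts, Cdkn1c-203, Cdkn1c-204 and Cdkn1c-205, lay within it. The GC content of this site was 58.7% and its CpG observed/expected ratio 0.68, against medians of 47.7% and 0.18 over all sites on chromosomes 1 to 19 and X. A GC content that high was found in 0.958% of sites.

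On either side of Cdkn1c the cover was unequal. In the 20 kb downstream 86.7% of bases lay under sites, and in the 20 kb upstream 28.5%. Sites less than 1000 bp apart formed a run from chr7:143427113 to the edge inside the gene at 143460903. The run is 33791 bp long, and 91.5% of it lay under sites. Its main part is a site of 20756 bp, chr7:143428585-143449340, of which 11002 bp lay in the window, and 0.552% of all sites are at least that wide. The short RNA gene Gm27901 lies inside it, and Gm44732, antisense to Cdkn1c, lies wholly inside the site on the gene. Upstream, 6192 bp without a site separated the site on Cdkn1c from a site of 2976 bp, which began 6046 bp from the 5′ end, and then 1 of 2164 bp, the latter within 1 kb of a TSS of Slc22a18, the gene of a membrane transporter. A further site of 4521 bp, centred in an intron of Slc22a18, had 551 bp in the window, and the next site, 4183 bp outside the window, was 11216 bp wide. The 7 sites of the window other than that on the gene had a CpG ratio from 0.05 to 0.24.

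Cdkn1a encodes p21, a broad inhibitor of cyclin and CDK complexes and a classic target of p53. It spans chr17:29090976-29100727 on the plus strand. Its gene body and the 20 kb upstream held 0 sites, whereas 40.7% of the 20 kb downstream lay under 6 sites. The first of these, the tandem repeat shown above, began 12926 bp from the 5′ end, and the nearest TSS of any annotated Cdkn1a transcript was 6002 bp away. At that distance 59.9% of protein-coding genes were at least as far from a site. The second site was 2156 bp wide, outside genes, and 61.1% of it is masked as repeat. The 4 others, of 583, 632, 746 and 3238 bp, lay at or in Rab44, a gene of the RAB family that begins after 13417 bp beyond the end of Cdkn1a, and sites covered 34.6% of it. Trp53cor1, the lincRNA upstream of Cdkn1a, had 0% under sites. The mark near Cdkn1a was thus limited to the downstream side, and the site nearest outside the window, of 1193 bp, followed on the same side at 25615 bp from the gene.

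Cdkn2d encodes p19Ink4d and spans chr9:21288410-21291407 on the minus strand. Both of its sites were narrow, 258 bp and 429 bp, and 88.3% and 68.0% of all sites are at least as wide. They lay 5487 bp and 11745 bp upstream of the 5′ end, in introns of Ap1m2, which encodes an epithelial clathrin adaptor subunit. The wider of them was within 1 kb of a TSS of Ap1m2. The smallest width in the list is 200 bp. Its stretch without a site was 36055 bp long, below the median over genes of 168739 bp, but 602555 bp when sites under 500 bp were left out of the list. Downstream, the nearest site outside the window was 27571 bp from the gene and 2607 bp wide.

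Cdkn1b encodes p27Kip1, which holds CDK2 complexes in check in quiescent cells, and spans chr6:134920401-134925513 on the plus strand. Its nearest site was 126501 bp from a TSS, and 14.3% of protein-coding genes were at least that far. The stretch without a site was 413986 bp long and held the 5′ ends of 7 protein-coding genes. Cdkn2c encodes p18Ink4c and spans chr4:109660876-109667189 on the minus strand. Its nearest site was 139897 bp from a TSS, a distance reached by 13.2% of genes, in a stretch of 446872 bp with the 5′ ends of 3 protein-coding genes. With sites of at least 1000 bp alone this stretch was 1092391 bp long, and that of Cdkn2a and Cdkn2b was then 821204 bp. The cover within 1 Mb differed between them. It was 10.6% around Cdkn1b, above the median over genes of 9.32%, and 3.99% around Cdkn2c. A long stretch without a site was thus not particular to Cdkn2a and Cdkn2b within the group.

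**Figure D4:**
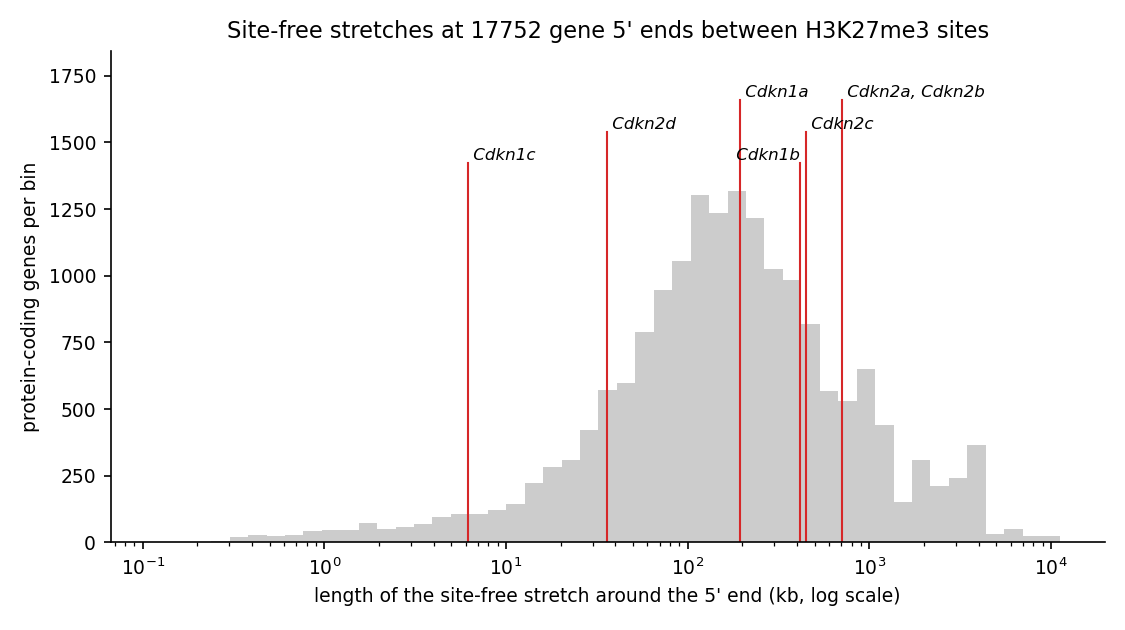
Histogram of the length of the stretch between neighbouring H3K27me3 sites around the 5′ end (x axis, kb, log scale) for 17752 protein-coding genes whose 5′ end lies outside sites and between 2 sites of its chromosome, with the count of genes per bin on the y axis and the inhibitor genes as red lines. Cdkn1c with 6192 bp and Cdkn2d with 36055 bp lie below the median of 168739 bp of the list as deposited, and Cdkn1a, Cdkn1b, Cdkn2c and the shared stretch of Cdkn2a and Cdkn2b above it.

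Base composition did not order the genes as the sites did. The 1 kb centred on the 5′ end had a GC content of 69.4% at Cdkn1c, 67.0% at Cdkn2a, 63.5% at Cdkn1b, 59.9% at Cdkn2d, 58.3% at Cdkn2b, 57.0% at Cdkn2c and 47.1% at Cdkn1a, beside a median of 54.9% over genes. The CpG observed/expected ratio was highest at Cdkn2a with 0.98 and Cdkn1b with 0.91, both without a site, followed by Cdkn1c with 0.88. It was 0.74 at Cdkn2b, 0.73 at Cdkn2c and 0.68 at Cdkn2d. At the outermost 5′ end of Cdkn1a it was 0.13, and the CpG-rich stretch of this gene lay at an inner TSS. The 5′ end of Cdkn2a is that of p19Arf, whereas the p16Ink4a promoter of the gene held 7 CG in 250 bases, which 46.3% of promoters reach. The ratio of Cdkn2a was reached by 2.57% of protein-coding genes and that of Cdkn1c by 10.5%. These are single values per gene with n = 7 and no error.

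**Figure D5:**
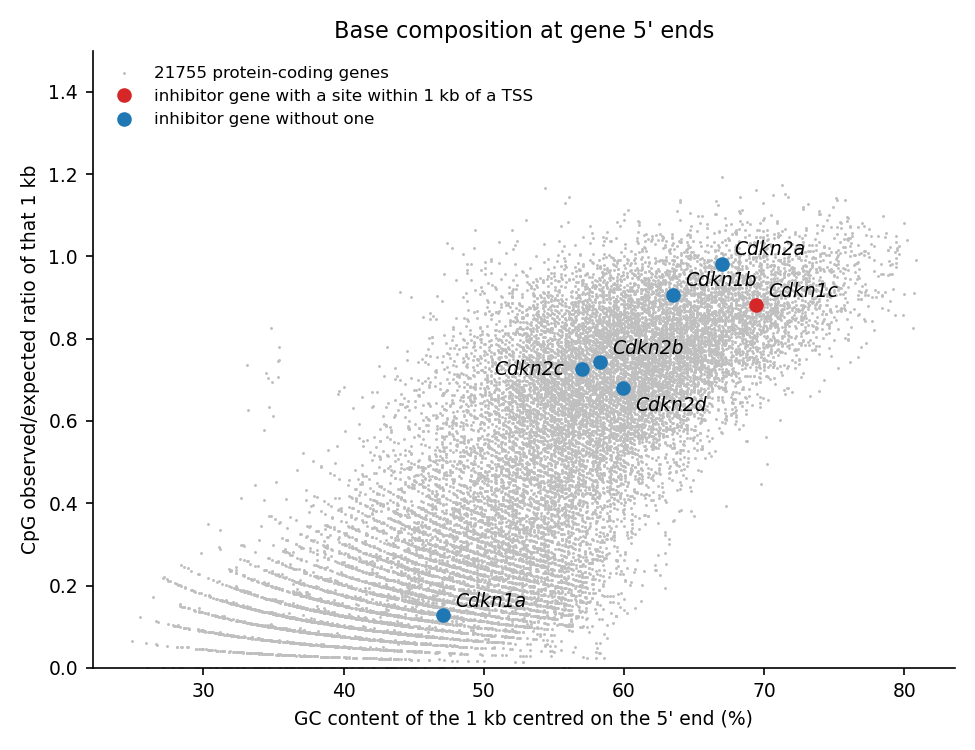
GC content (x axis, %) and CpG observed/expected ratio (y axis) of the 1 kb centred on the 5′ end of 21755 protein-coding genes (grey), with inhibitor genes that have a site within 1 kb of a TSS in red and those without in blue. Cdkn1c, the red point, lies among the CpG-rich genes beside Cdkn2a and Cdkn1b, and Cdkn1a lies apart at 47.1% and 0.13.

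Cell cycle partner genes of the inhibitors were examined as a list of 29, made up of cyclins, kinases, pocket proteins, E2F factors, p53 pathway genes and Cdkn3. In this list a site came within 1 kb of a TSS in 6 genes, or 20.7%, beside 26.9% of all protein-coding genes, and 18 had a site in the window, or 62.1%, beside 61.5% of all protein-coding genes. The 6 were Ccna1, Ccnd1, Ccnd2, Rb1, E2f2 and E2f8, and with sites of at least 1000 bp alone the count was 3. The widest cover was at Ccna1, a cyclin mainly of male germ cells, with 75.6% of its window and 80.4% of its gene body under sites, and sites covered its 5′ end. The other 5 genes had a window cover from 0.37% at Rb1, which encodes the retinoblastoma protein, to 14.8% at Ccnd2, and no site over the 5′ end. Cdk6, the INK4 target, had no site in its window, and Cdk4 had 52.6% of its window under sites with the nearest 1700 bp from a TSS.

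Genes of the Polycomb machinery and of histone demethylases were taken as a list of 15. A site within 1 kb of a TSS was found for 6, or 40.0%, beside 26.9% of all protein-coding genes, and a site in the window for 13, or 86.7%, beside 61.5%. The 6 were Ezh1, Bmi1, Cbx2, Cbx7, Cbx8 and Kdm2b. At Cbx7, whose protein binds H3K27me3 and is a known repressor of Cdkn2a, 22 sites covered 24.7% of the window and 27.4% of the gene body. At Cbx2 and Cbx8, which are neighbours on chromosome 11, 43.2% and 56.9% of the window lay under sites. Bmi1 had 6.97% of its window under sites, with an annotated TSS inside a site. Ezh2, Eed and Suz12 had none that near. These values are positions in a pooled list and give no expression level of the genes.

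The labelled cell type was set against marker genes by the same measure. Of 10 fibroblast markers 1, Pdgfra, carried a site within 1 kb of a TSS, against 2 of 5 epithelial markers, 3 of 4 blood markers and 3 of 4 neural markers, beside 26.9% of all protein-coding genes. H3K27me3 is no measure of expression, and the markers were too few for a test.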

How the data were processed

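H3K27me3 ChIP-seq was performed on 8 libraries with 4 input libraries, as grouped from the sample titles and time point labels. The authors used Trim Galore for trimming, BWA for alignment to mm10 (GRCm38.p6, GENCODE release M25), SAMtools for filtering, Picard to merge replicates and MACS to call broad peaks, as their methods state. The submitters' processing notes also name MACS2, deepTools and DESeq2, and versions were not given in the sources used here. The deposited list of site positions (chromosome, start and end) is the file used, and it holds no counts or scores, so no test was run and no interval computed. The number of per-sample columns not used was 0.

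Starts were read as counted from 0. Sites on scaffolds (84 of 101389) were left out. Gene bodies, exons and TSSs came from GENCODE M21 on GRCm38, and sequence and promoters from RefSeq (GRCm38.p6). Windows were extended by 20 kb and TSS windows were 1 kb on either side, and any overlap of 1 base counted. GC content and CpG ratio were computed over 500 bp on both sides of the 5′ end, and CpG-rich means a 500 bp stretch with 55% GC and a ratio of 0.65. Interval code was tested on simulated intervals. Analyses used Python 3.11.15, numpy 2.4.6 and matplotlib 3.10.9.

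The 7 genes and the gene lists were chosen with earlier results of these data known. The genes named were the 7 members, genes overlapping their windows where a site lay on them or at their TSS, and list genes with a site within 1 kb of a TSS. Cdk4, Cdk6, Ezh2, Eed, Suz12, Trp53cor1, Mtap, Ifne, Mllt3, Dmrta1 and the Kcnq1 cluster genes were named after their values were seen. The comparison between time points fixed in the design needed counts per library and was not run. Alternatives changed the smallest site width, the overlap rule, the extension, the TSS window and the merging of sites.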

Additional observations from a re-analysis of the deposited data

How the results depend on the processing

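The 4 genes without a site, Cdkn1b, Cdkn2a, Cdkn2b and Cdkn2c, had 0 cover under all 10 alternatives of site width, overlap rule, extension, merging and start position, and the count of genes with a site within 1 kb of a TSS was 1 under all 8 alternatives tried for it. The number of genes with a site in the window was 1 with no extension, and 2 or 3 under the other 10 alternatives; Cdkn2d dropped out when sites under 500 bp were removed. The number of sites, 16 as reported, was 9 with sites of at least 1000 bp, 1, 4, 10 and 31 with extensions of 0, 5, 10 and 50 kb, and 8 and 7 after merging sites less than 1000 and 3000 bp apart. The covered share of the joined windows, 11.3% as reported, was 11.0% and 10.1% with sites of at least 500 and 1000 bp, 11.2% with the centre or at least 50% of a site in the window, 4.95%, 5.91%, 8.22% and 13.9% with extensions of 0, 5, 10 and 50 kb, and 12.7% and 13.2% after the mergings. The alternatives for the stretches without a site were added after the data had been seen. With sites of at least 500 bp the stretch of Cdkn2a and Cdkn2b was 821204 bp, that of Cdkn2c 448745 bp and that of Cdkn2d 602555 bp, and with sites of at least 1000 bp they were 821204, 1092391 and 603501 bp and that of Cdkn1a 199975 bp. The number of cell cycle partner genes with a site within 1 kb of a TSS was 3 with sites of at least 1000 bp and 8 with a window of 3 kb. No paired analysis was possible because the list holds no value of a single library, and for the same reason no replicate could be left out. The depth behind each site is unknown, and so is the signal below which a site would not have been listed.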

Other observations

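Cdkn1c lies in the imprinted Kcnq1 cluster, and a chosen set of other genes of the cluster was looked up after the values at Cdkn1c had been seen. From Ascl2 to Osbpl5, chr7:142966829-143756985, 69 sites covered 21.6% of 790157 bp, and 5 of the 10 protein-coding genes examined other than Cdkn1c had one near a TSS (within 1 kb), beside 26.9% of all protein-coding genes. Ascl2, a trophoblast transcription factor gene, and Phlda2, a gene that restrains placental growth, had 100% of their gene body under sites, beside 94.6% at Cdkn1c, 62.7% at Slc22a18, 20.1% at the long channel gene Kcnq1 and 11.5% at Osbpl5. Tspan32, Cd81, Tssc4, Nap1l4, Tnfrsf23 and the antisense RNA gene Kcnq1ot1, whose transcript silences the cluster in cis on the paternal allele, had 0%. The list does not separate the maternal from the paternal allele. The site of 20756 bp beside Cdkn1c was the widest in the cluster.

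Of the 42 unmasked 50 bp pieces taken from the Cdkn1a window, 33 also occurred in an alternate strain sequence of GRCm38.p6, and 0 pieces of any other window did. The authors removed reads they judged unusable by ENCODE recommendations, and how reads that fit both sequences were treated is not spelled out in the sources used here.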
